A study of Rattus norvegicus with 15 samples.

Results

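The naïve inferior colliculus (IC) of Wistar Audiogenic Rats (WAR) was compared with that of Wistar rats on 8 Affymetrix Rat Gene arrays, 4 of WAR (WAR N) and 4 of Wistar (Wistar N). These are the arrays of the series whose labels give an exposure of none. The other 7 of its 15 arrays, 5 of WAR (WAR S) and 2 of Wistar rats (Wistar S), come from animals exposed to sound. They serve here as arrays of the same strains that share no sample with the naïve ones, and in an interaction of strain and sound. The study describes its stimulated WAR as rats that had seizures and its stimulated Wistar rats as rats that did not respond. A difference between WAR S and Wistar S can therefore hold seizure as well as strain. All rats were males of 12 weeks. Apart from the general treatment text described below, no treatment, transgene or deletion is given for either naïve group. The labels name the School of Medicine of Ribeirão Preto as provider of WAR and Charles River as provider of Wistar rats, so strain and colony cannot be told apart. The methods of the study give a Brazilian university as the origin of its own rats, but take its array data from an earlier study. The general treatment text of the labels, and the methods of the study for its arrays, describe rats that received acoustic stimulation, with group sizes other than those of the labels. The exposure label of each array was followed here, and naïve means no more than that label. The titles call the arrays biological replicates, and no source states whether each holds RNA of a single rat.

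WAR descend from Wistar rats selected over many generations for seizures in response to intense sound. The IC is the midbrain station in which ascending auditory pathways converge, and it holds glutamatergic projection neurons together with a large share of neurons that release GABA, the main inhibitory transmitter. In genetically audiogenic rodents it is the structure from which sound-evoked seizures start. The comparison asks how the tissue of the strains differs where the labels give no sound exposure.

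The values are log2 signals, so a difference of 1 is a doubling, and each gene is represented by its brightest probe set. Of 14506 genes, 878 differed between WAR N and Wistar N at a Benjamini-Hochberg adjusted p under 0.05 in limma, which is 6.05% of the genes, with 469 higher (3.23%) and 409 lower (2.82%) in WAR N. When at least a 2-fold difference and an unadjusted p up to 0.05 were asked for, 254 genes (1.75%) passed, 140 higher (0.965%) and 114 lower (0.786%). The 4 WAR N values and the 4 Wistar N values did not overlap at 1951 genes (13.4%), 1150 with WAR N above (7.93%) and 801 with WAR N below (5.52%). Of these, 850 (5.86%) were among the 878. At an unadjusted p under 0.05 alone, 25.2% of the genes passed, 13.9% higher and 11.3% lower. The median difference over all genes was 0.02.

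Wistar N replicate 1 stood apart from its group. On the first principal component of the 8 arrays, which held 59.1% of the variance, it lay at −33.7, among the WAR N arrays at −34.0 to −20.0, while Wistar N replicates 2, 3 and 4 lay at 47.4 to 54.8. It correlated with the WAR N arrays over all probe sets at 0.9802 to 0.9867, and with the other Wistar N arrays at 0.9546 to 0.9627. On the second component (15.1% of the variance) it lay at −39.5, beyond the other 7 arrays at −18.9 to 23.4. No label sets it apart, and its values were taken as labelled. Whether it is a swapped or mixed sample cannot be told from the labels, and this doubt touches every Wistar N mean and every difference with 8 arrays below. The counts of calls are therefore given with and without it, and its side is given for most named genes. All 117 named genes called with 8 arrays were also called, in the same direction, without it. All 878 called genes were called without it too, so this does not set the named ones apart. Of the 117, only 8 to 50 stayed called when another array was left out.

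**Figure D1:**
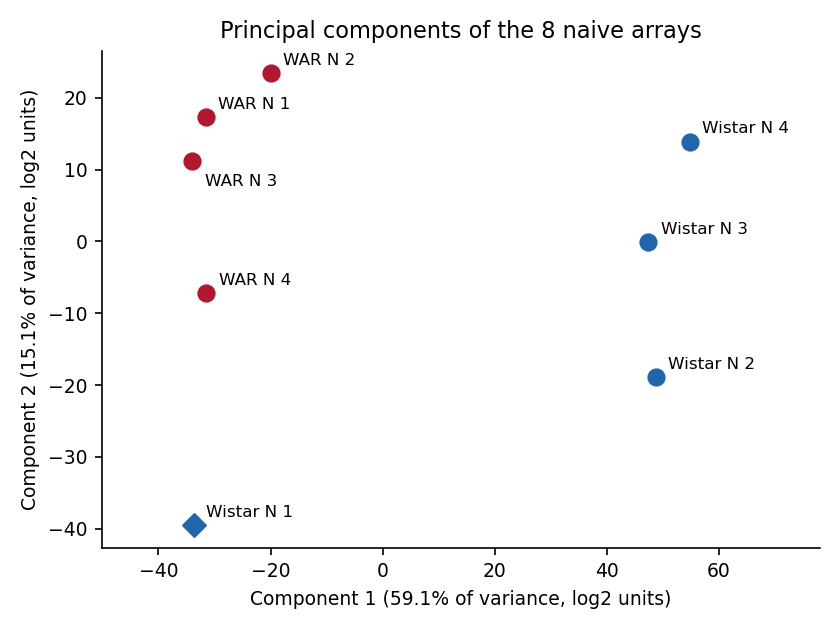
Principal components of the 8 naïve arrays over all 29214 probe sets, with the share of the variance on each axis. Red points are WAR N, blue points Wistar N and the blue diamond Wistar N replicate 1. The diamond lies at −33.7 on component 1, within the span of the WAR N arrays, and at −39.5 on component 2, below all others.

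Without Wistar N replicate 1, 4787 genes (33%) were called, 2492 higher (17.2%) and 2295 lower (15.8%) in WAR N, and all 878 were among them. With fold change and unadjusted p, 634 genes (4.37%) were called without it, 317 (2.19%) in each direction. Leaving out any other array worked the opposite way. The number of calls was then 30 without Wistar N replicate 2, 15 without replicate 3 and 147 without replicate 4. It was 8 without WAR N replicate 1, 57 without replicate 2, 19 without replicate 3 and 170 without replicate 4. The counts by fold change moved less, from 176 to 290 over these 7 fits.

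The place of Wistar N replicate 1 was measured gene by gene on a scale on which 0 is the median of the 4 WAR N arrays and 1 is the median of the other 3 Wistar N arrays, and it was said to lie with its group above 0.5. Among the 4787 genes called on the other 7 arrays, which did not use it, its median place was 0.05. It lay with Wistar N at 999 genes (20.9%) and with WAR N at 3788, and it was inside the range of the other 3 Wistar N values at 495 (10.3%). Among the 633 of these genes with a log2 difference of at least 1, it lay with Wistar N at 56 (8.8%).

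**Figure D2:**
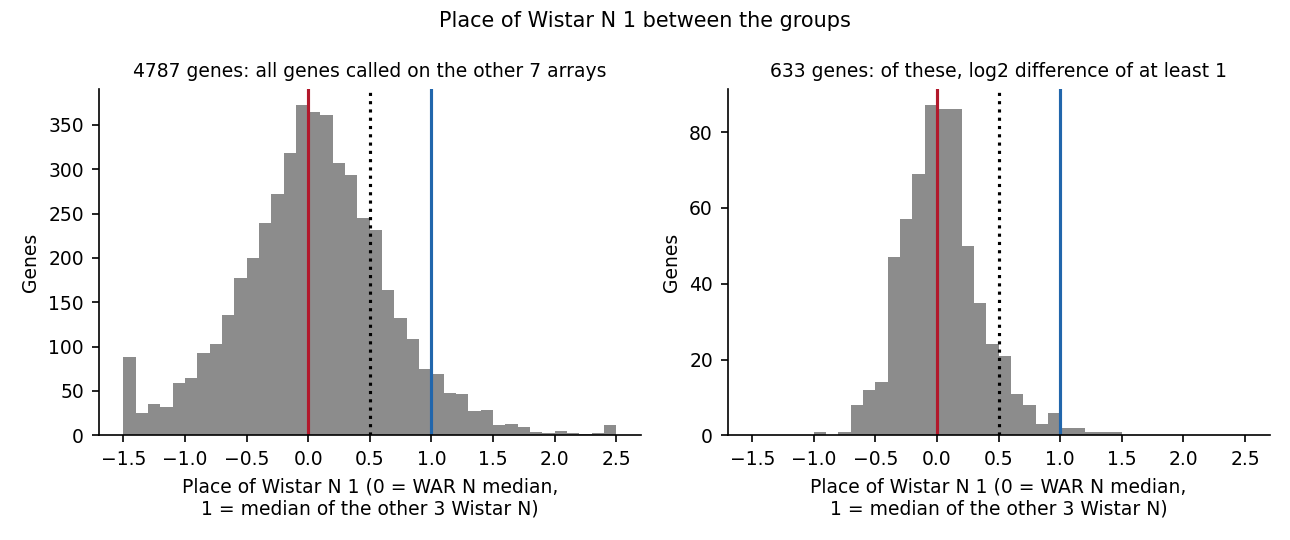
Number of genes (vertical axis) by the place of Wistar N replicate 1 (horizontal axis, 0 at the WAR N median in red, 1 at the median of the other 3 Wistar N arrays in blue, dotted line at 0.5), for the 4787 genes called on the other 7 arrays and for the 633 of them with a log2 difference of at least 1. Places beyond −1.5 or 2.5 are drawn in the end bins, and both distributions peak near 0, at the WAR N side.

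The stimulated arrays gave a view of the same genes that used none of the naïve arrays. They appear to have been normalized apart from the naïve ones, so only differences within each set were used. Pairs of stimulated arrays also shared many identical values, and what this does to their adjusted p-values was not tested. Of the 999 genes at which replicate 1 lay with Wistar N, 753 (75.4%) had the same sign in the stimulated arrays and 59 were also called there in the same direction. Of the 3788 genes at which it lay with WAR N, 2280 (60.2%) had the same sign and 87 were called. At log2 differences of at least 1, the same sign was found in 48 of 56 genes (85.7%) and in 376 of 577 (65.2%). The directions were unlike. Wherever replicate 1 lay, the same sign was found at 68.3% of the 2492 genes higher and 58.0% of the 2295 lower in WAR N. At log2 differences of at least 1 these shares were 76.9% and 57.1%. Over all genes the stimulated difference was positive at 8072 and negative at 6434. Chosen the other way, from the 274 genes called in the stimulated arrays, 109 had naïve medians (of WAR N and of the other 3 Wistar N arrays) that differed the same way by at least 0.5, and replicate 1 lay with Wistar N at 37 of them (33.9%) and with WAR N at 72. Over all genes, 1.89% were called in the stimulated arrays, 172 higher (1.19%) and 102 lower (0.703%) in WAR S, and 14.7% passed an unadjusted p of 0.05, 9.04% higher and 5.71% lower.

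Of the 878 genes called with all 8 arrays, replicate 1 lay with Wistar N at 513 (58.4%) and inside the range of the other 3 at 202, of which 94 were higher and 108 lower in WAR N. These shares are raised by the test itself, which used replicate 1. Of the 878, 710 had the same sign in the stimulated arrays and 64 were called there in the same direction, 41 higher and 23 lower in WAR S, and at 39 of these 64 replicate 1 lay with Wistar N.

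Only 8 genes were called whichever array was left out, and replicate 1 lay with its group at each of them. That side was favoured by the choice itself, since all fits but the one without replicate 1 used it. The genes were chosen after their values were seen. They are *Prps1*, *Ephx2*, *Pfkm*, *Adprh* and *Atp1b2*, lower in WAR N, and *P2ry12*, *Nostrin* and *Psmb6*, higher in WAR N. The largest adjusted p of these genes over the 8 fits that leave out 1 array was 0.0426.

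*Prps1* encodes phosphoribosyl pyrophosphate synthetase, which makes the ribose donor for purine and pyrimidine nucleotides. Its Wistar N values were 10.60, 10.08, 10.33 and 10.28 in replicates 1 to 4, and its WAR N values were 8.93, 8.93, 8.52 and 8.80. The groups were far apart and replicate 1 was the highest Wistar value. The difference was −1.53 ± 0.14 (log2, SE, adjusted p = 0.00542), a level 2.88-fold higher in Wistar N, and −1.43 without replicate 1. The stimulated arrays gave −1.06 (adjusted p = 0.00141).

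*Ephx2* encodes soluble epoxide hydrolase, which converts epoxides of fatty acids into diols. Its Wistar N values were 6.92, 7.05, 6.82 and 7.40 and its WAR N values 5.55, 5.71, 5.76 and 5.71. Replicate 1 was inside the range of its group and no WAR N array came near it. The difference was −1.36 ± 0.13 (log2, SE, adjusted p = 0.00542), −1.41 without replicate 1, and −1.13 in the stimulated arrays (adjusted p = 0.00477).

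*Pfkm*, the muscle form of phosphofructokinase that sets the pace of glycolysis, had Wistar N values of 11.83, 12.26, 12.37 and 12.47 and WAR N values of 10.68, 10.93, 10.83 and 10.80. Replicate 1 was the lowest Wistar value and lay at 0.65 on the scale between the groups. The difference was −1.42 ± 0.14 (log2, SE, adjusted p = 0.00636) and −1.56 without replicate 1, against −0.32 in the stimulated arrays (adjusted p = 0.268), and the difference between these strain effects, 1.10, had an adjusted p of 0.0514.

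*Atp1b2* encodes the β2 subunit of the sodium pump, which in the brain is found mainly in glia. Wistar N values were 12.17, 12.34, 12.02 and 12.13 and WAR N values 10.74, 10.98, 11.01 and 11.29. Replicate 1 was inside its group. The difference was −1.16 ± 0.13 (log2, SE, adjusted p = 0.0108), −1.16 without replicate 1, and −0.61 in the stimulated arrays (adjusted p = 0.108).

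*Adprh* encodes the hydrolase that removes ADP-ribose from arginine residues of proteins. Wistar N values were 9.36, 9.56, 9.50 and 9.21 and WAR N values 8.40, 8.29, 8.32 and 8.32. Replicate 1 was inside its group. The difference was −1.07 ± 0.10 (log2, SE, adjusted p = 0.00542), and −1.09 without replicate 1. It was −0.11 in the stimulated arrays, and the strain differences with and without sound differed by 0.97 (adjusted p = 0.00814 for the interaction).

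*P2ry12*, the ADP receptor by which resident microglia are recognized, had Wistar N values of 8.67, 8.59, 8.96 and 8.63 and WAR N values of 9.98, 10.02, 9.95 and 9.94. The WAR N arrays were nearly equal and replicate 1 was inside the Wistar range. The difference was 1.26 ± 0.10 (log2, SE, adjusted p = 0.00542), 2.39-fold, 1.24 without replicate 1, and 0.89 in the stimulated arrays (adjusted p = 0.00288).

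*Nostrin*, an endothelial protein that binds nitric oxide synthase and moves it within the cell, had Wistar N values of 6.69, 6.67, 6.61 and 6.29 and WAR N values of 7.86, 7.71, 7.93 and 8.25. Replicate 1 was the highest of its group by a small margin. The difference was 1.37 ± 0.14 (log2, SE, adjusted p = 0.00663), 1.41 without replicate 1, and 1.31 in the stimulated arrays (adjusted p = 0.00443).

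*Psmb6*, a catalytic subunit of the proteasome, had Wistar N values of 9.39, 8.87, 8.59 and 8.93 and WAR N values of 10.61, 10.66, 10.72 and 10.45. Replicate 1 was above the rest of its group but nearer to it than to WAR N. The difference was 1.66 ± 0.16 (log2, SE, adjusted p = 0.00542), and 1.81 without replicate 1. With sound the strain difference was 0.0029, and the interaction of −1.66 had an adjusted p of 0.00814.

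**Figure D3:**
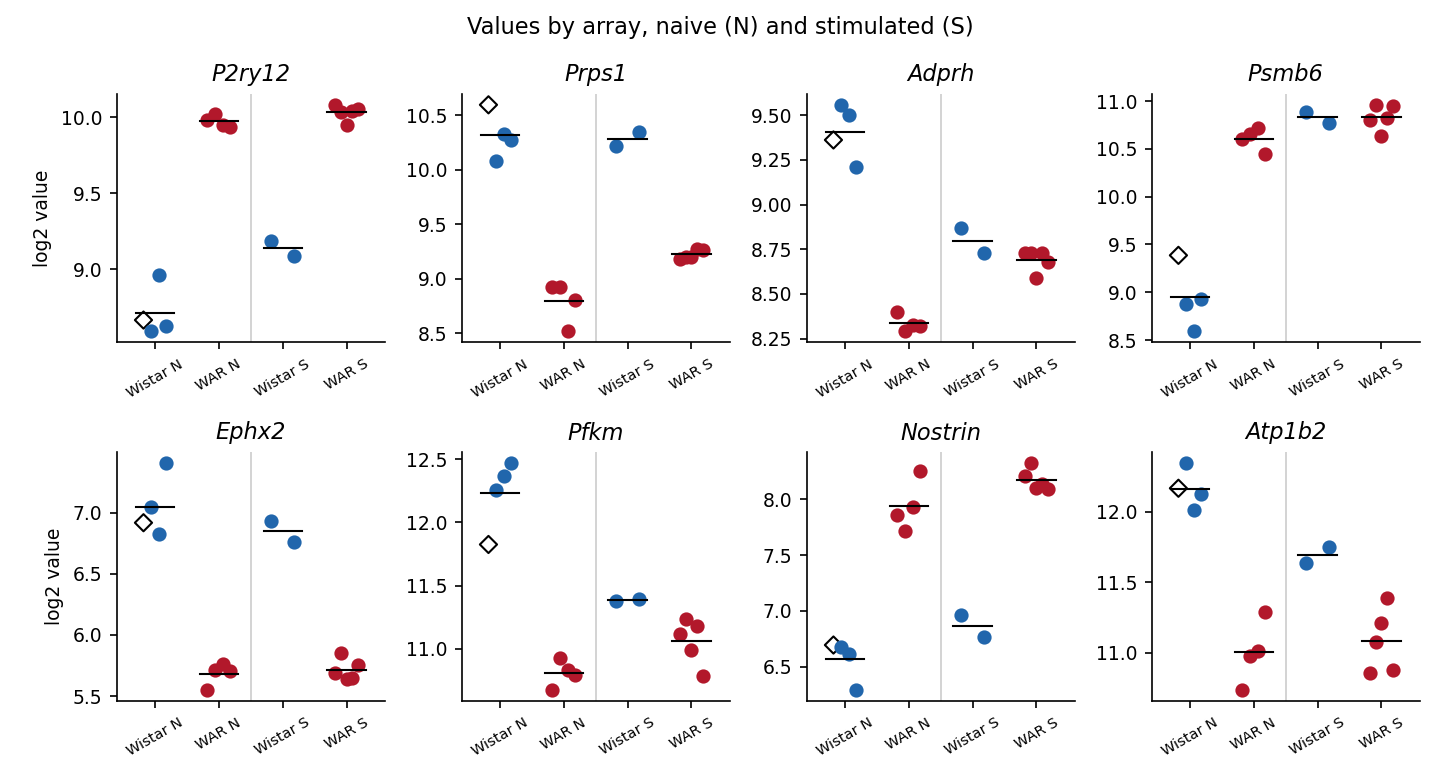
Log2 values by array (vertical axis) for the 8 genes called whichever naïve array was left out; open diamonds are Wistar N replicate 1, other blue points Wistar arrays, red points WAR arrays, and bars group means. Naïve and stimulated arrays appear to have been normalized apart, so levels should be compared only on the same side of the vertical line. *Prps1*, *Ephx2*, *P2ry12* and *Nostrin* were called on both sides at an adjusted p under 0.05.

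Beyond these, *Ptpa*, an activator of the phosphatase PP2A chosen like *Dlg4* after its values were seen, was called in 7 of the 8 fits that leave out 1 array. Its Wistar N values were 10.57, 10.64, 10.49 and 10.37 and its WAR N values 9.61, 9.50, 9.63 and 9.73, with replicate 1 inside its group. It differed by −0.90 ± 0.09 in the naïve arrays (adjusted p = 0.00703) and by −0.81 in the stimulated ones (adjusted p = 0.00781). *Dlg4*, the postsynaptic scaffold protein PSD-95, was also called in 7 of these fits, with a difference of −0.75 ± 0.09 (adjusted p = 0.0133) and replicate 1 with its group at 0.84. The stimulated arrays gave −0.19 for *Dlg4* (adjusted p = 0.23).

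The largest differences were of another kind. At the 12 genes most overexpressed in WAR N among called genes whose groups did not overlap (3.12% of all genes higher, 2.74% lower), replicate 1 lay with Wistar N at 2 and with WAR N at 10. At the 12 most underexpressed genes, it lay with Wistar N at 4 and with WAR N at 8. Of these 24 genes, 3 were called in each fit that left out 1 array, namely *Prps1*, *Pfkm* and *Ephx2*. With sound 11 of the 12 overexpressed and 10 of the 12 underexpressed genes had the same sign, and 3 and 2 of them were called.

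**Figure D4:**
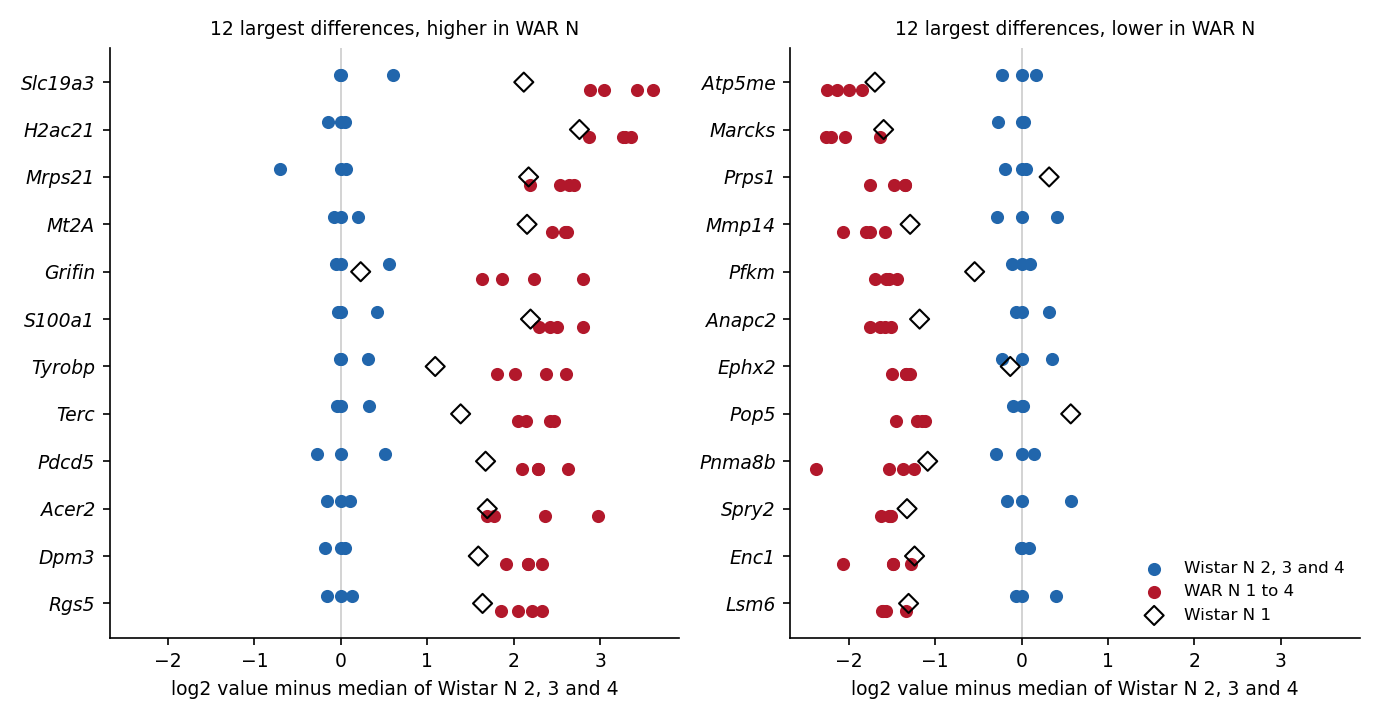
Log2 value minus the median of Wistar N replicates 2, 3 and 4 (horizontal axis) for the 12 largest differences in each direction; blue points are those 3 arrays, red points the 4 WAR N arrays and open diamonds Wistar N replicate 1. The diamond lies on the red side at 10 of the 12 genes higher and 8 of the 12 lower in WAR N.

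*Slc19a3*, a transporter of the vitamin thiamine, had the largest difference. Its Wistar N values were 7.60, 5.48, 6.08 and 5.48 and its WAR N values 8.91, 8.36, 8.53 and 9.10. Replicate 1 lay between the groups, nearer to WAR N (place 0.35). The difference was 2.57 ± 0.43 (log2, SE, adjusted p = 0.0231), 5.92-fold, and 3.05 without replicate 1. It was 2.46 in the stimulated arrays (adjusted p = 0.00781).

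*H2ac21*, a gene of histone H2A, had Wistar N values of 10.01, 7.25, 7.11 and 7.30 against WAR N values of 10.61, 10.13, 10.53 and 10.51. Replicate 1 was close to WAR N and far from its group (place 0.16). The difference of 2.53 ± 0.57 (adjusted p = 0.0398) became 3.23 without replicate 1 and was 0.06 in the stimulated arrays. *Mrps21*, of the small subunit of mitochondrial ribosomes, had 11.05, 8.88, 8.17 and 8.94 in Wistar N and 11.06 to 11.58 in WAR N, with replicate 1 just below the lowest WAR N array. *Mt2A*, a metallothionein that binds zinc and copper, had 12.76, 10.81, 10.53 and 10.61 in Wistar N and 13.06 to 13.22 in WAR N, again with replicate 1 near WAR N. *Mrps21* differed by 2.13 ± 0.51 (adjusted p = 0.0456) and *Mt2A* by 1.996 ± 0.44 (adjusted p = 0.0362).

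*Grifin*, a galectin-related protein of the lens, was the overexpressed gene of this set at which replicate 1 was inside its group. Wistar N values were 8.05, 8.37, 7.76 and 7.82 and WAR N values 9.69, 9.45, 10.62 and 10.05. The difference was 1.95 ± 0.24 (adjusted p = 0.0133), 3.87-fold, and 1.31 in the stimulated arrays (adjusted p = 0.0165). *Tyrobp*, an adaptor of microglial receptors, had 7.64, 6.87, 6.54 and 6.55 in Wistar N and 8.36 to 9.16 in WAR N. Replicate 1 lay almost midway at 0.503, so that its side rests on the choice of 0.5. Its difference was 1.85 ± 0.26 (adjusted p = 0.0174).

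At the other overexpressed genes of this set replicate 1 lay with WAR N. *Terc*, the RNA component of telomerase, had 9.04, 7.98, 7.66 and 7.61 in Wistar N and 9.70 to 10.12 in WAR N, a difference of 1.85 ± 0.29 (adjusted p = 0.019), against −0.40 in the stimulated arrays. *Rgs5*, a regulator of G protein signaling typical of pericytes, had 11.0004, 9.36, 9.49 and 9.204 in Wistar N and 11.21 to 11.69 in WAR N. It differed by 1.71 ± 0.35 (adjusted p = 0.0327) and by 1.20 in the stimulated arrays (adjusted p = 0.0155). The rest were *S100a1*, a calcium-binding protein (1.85), *Pdcd5*, linked to programmed cell death (1.84), *Acer2*, a ceramidase (1.79), and *Dpm3*, which anchors an enzyme of protein glycosylation (1.78), with places of replicate 1 from 0.11 to 0.27.

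Among the underexpressed genes *Atp5me*, a subunit of ATP synthase, had 8.26, 9.96, 9.73 and 10.13 in Wistar N and 7.71 to 8.11 in WAR N. Replicate 1 was next to WAR N. The difference was −1.62 ± 0.36 (adjusted p = 0.0377) with all arrays, −2.04 without replicate 1 and −0.13 in the stimulated arrays. *Marcks*, a substrate of protein kinase C that binds actin, had 9.18, 10.51, 10.81 and 10.78 in Wistar N and 8.52 to 9.14 in WAR N, and its difference of −1.58 ± 0.34 (adjusted p = 0.035) was −0.10 in the stimulated arrays. *Mmp14*, a membrane-bound matrix metalloproteinase, differed by −1.51 ± 0.31 (adjusted p = 0.0325) with replicate 1 at place 0.27.

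*Pop5*, a protein of the RNase P and RNase MRP complexes, was lower in WAR N with replicate 1 on the far side of its group. Wistar N values were 8.64, 8.07, 7.97 and 8.08 and WAR N values 6.92, 6.86, 6.95 and 6.62, a difference of −1.35 ± 0.15 (adjusted p = 0.0131). The stimulated difference was −0.70 (adjusted p = 0.38), but the Wistar S arrays did not agree. They had 6.84 and 8.13, against 6.52 to 6.87 in WAR S. The other underexpressed genes had replicate 1 with WAR N, at places from 0.14 to 0.27. They were *Anapc2* of the anaphase-promoting complex (−1.39), *Pnma8b* (−1.32), *Spry2*, an inhibitor of growth factor signaling (−1.32), *Enc1*, an actin-associated protein of neurons (−1.29), and *Lsm6* of the U6 small nuclear ribonucleoprotein (−1.29).

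Of the genes chosen for RT-qPCR in the study, *Egr3*, *Rgs2*, *Npy* and *Ttr* did not pass the test in the naïve arrays and *Abcb1a*, the efflux pump P-glycoprotein of brain capillaries, did. Its Wistar N values were 7.96, 7.51, 7.64 and 7.72 and its WAR N values 8.38, 8.24, 8.66 and 8.99, with replicate 1 highest of its group and on its side (place 0.64). The difference was 0.86 ± 0.17 (adjusted p = 0.0302), 1.82-fold, and 1.18 in the stimulated arrays (adjusted p = 0.0143).

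*Egr3*, a transcription factor of the immediate early response, had Wistar N values of 7.91, 7.68, 7.36 and 7.04 and WAR N values of 7.16, 7.35, 7.31 and 7.55, so the groups overlapped (−0.16 ± 0.18, adjusted p = 0.636). *Rgs2*, a regulator of G protein signaling, had 8.93, 9.35, 9.16 and 8.97 against 8.99, 9.17, 9.17 and 9.29 (0.05 ± 0.12, adjusted p = 0.835). *Npy*, an inhibitory neuropeptide, had 10.05, 9.50, 9.56 and 8.90 against 9.67, 10.13, 9.57 and 9.83 (0.30 ± 0.23, adjusted p = 0.456). *Ttr*, the thyroxine carrier made by the choroid plexus, had 6.50, 5.17, 5.37 and 5.10 against 5.43, 5.31, 5.26 and 5.32 (−0.21 ± 0.27, adjusted p = 0.69). In the stimulated arrays limma gave 1.05 at *Egr3* (adjusted p = 0.0135) and 0.85 at *Rgs2* (adjusted p = 0.052). It gave 0.94 at *Npy* (adjusted p = 0.0315) and −0.89 at *Ttr* (adjusted p = 0.043).

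At *Egr3* and *Rgs2* the medians of WAR N and of the other Wistar N arrays almost coincided, so that the place of replicate 1 says nothing there. At *Ttr* replicate 1 was the highest of the 8 arrays, and the sign turned to 0.12 without it. At *Npy* the difference without it was 0.48 (adjusted p = 0.0597). The direction at *Rgs2* turned to −0.01 without replicate 1. With 8 arrays the differences at *Egr3* and *Ttr* were negative, opposite to the RT-qPCR of the study, and those at *Rgs2* and *Npy* were positive. None of these was called with or without replicate 1, so the naïve arrays did not show the overexpression reported for them. The reason for this contrast was not tested.

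The genes were then read by function. The 43 lists of cell types, pathways and families are described by how many of their measured members were called, beside 6.05% of all genes with 8 arrays and 33% without replicate 1. Members of a list are not replicates, and no list was tested as a whole.

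**Figure D5:**
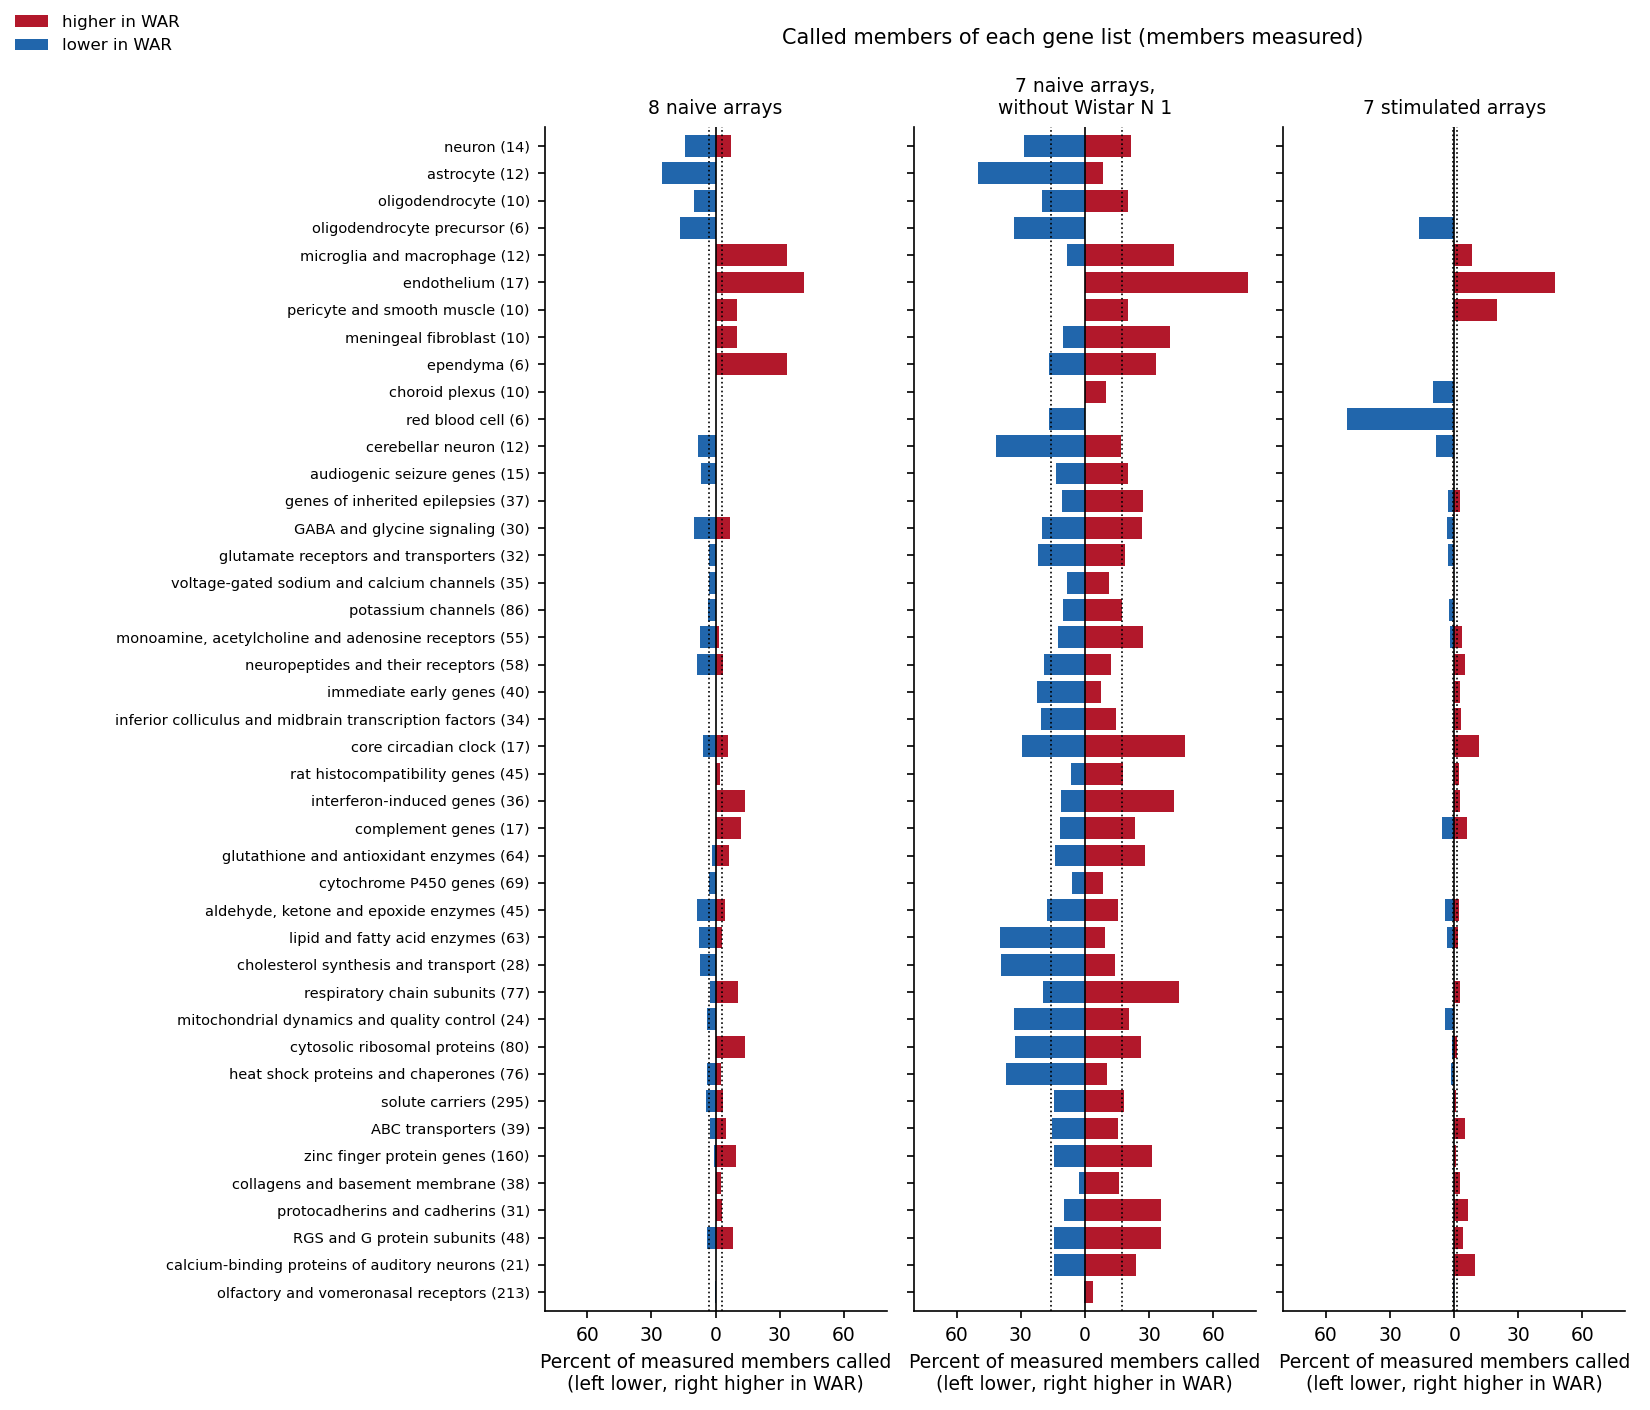
Percent of the measured members of each gene list called higher (red, to the right) or lower (blue, to the left) in WAR, on the 8 naïve arrays, the 7 naïve arrays without Wistar N replicate 1 and the 7 stimulated arrays; the number of measured members stands in brackets and dotted lines mark the shares over all genes. Endothelial markers are higher in WAR in each panel, 7, 13 and 8 of 17.

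Probe sets respond unequally, so the level of one marker list was not set against that of another, and each list is compared only between arrays. The mean level of 14 neuronal markers was 10.33 to 10.64 in WAR N, 10.50 to 10.82 in Wistar N replicates 2 to 4 and 10.81 in replicate 1. Of these markers 1 was higher and 2 were lower, and 3 and 4 without replicate 1. Over transcription factors of the IC and midbrain, 0 of 34 were called by limma and 10 passed an unadjusted p of 0.05, against 25.2% of all genes. Without replicate 1, 5 were higher and 7 lower.

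Endothelial genes had the highest share of calls among the 43 lists with 8 arrays, and without replicate 1 they shared it (76.5%) with the core clock. Of 17 endothelial markers 7 were higher and none lower in WAR N (41.2%), all 17 differences were positive, and the median was 0.70. Without replicate 1, 13 were higher, and in the stimulated arrays 8 were higher and 0 lower. The mean level of the list was 7.83 to 8.33 in WAR N, 7.09 to 7.12 in Wistar N replicates 2 to 4 and 7.98 in replicate 1, within the WAR N range. In tissue of mixed cells, more cells of a type and more RNA per cell cannot be told apart.

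At single endothelial genes replicate 1 went both ways. It lay with Wistar N at *Nostrin* and *Abcb1a*, given above, and at *Itm2a*, a membrane protein marking brain endothelium. *Itm2a* had 9.23, 8.92, 8.73 and 9.02 in Wistar N and 9.94, 9.73, 9.83 and 10.26 in WAR N (0.97 ± 0.14, adjusted p = 0.0174), and 1.71 in the stimulated arrays. The other 4 called members had replicate 1 with WAR N. Of 10 pericyte and smooth muscle markers *Rgs5* alone was called, 2 were higher without replicate 1, and the level of replicate 1 (7.80) was again at the level of WAR N (7.45 to 7.81) rather than of the other Wistar N arrays (7.17 to 7.27). *Abcg2*, the other main efflux pump of the blood-brain barrier, was higher by 0.93 ± 0.13 (adjusted p = 0.0174) with replicate 1 on the Wistar side. Of 39 ABC transporters 2 were higher and 1, the mitochondrial *Abcb8*, was lower (−0.66, adjusted p = 0.0398, replicate 1 with WAR N), while 6 were called in each direction without replicate 1.

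Of 12 markers of microglia and macrophages 4 were higher and none lower in WAR N (33.3%), 5 were higher and 1 lower without replicate 1, and the median was 0.14. The mean level was 8.24 to 8.33 in WAR N, 7.81 to 7.90 in the other Wistar N arrays and 7.91 in replicate 1, next to its own group. *P2ry12* and *Tyrobp* are given above. *Trem2*, a receptor by which microglia sense lipids and debris, had 7.35, 6.96, 6.95 and 6.37 in Wistar N and 8.23, 7.71, 8.36 and 8.06 in WAR N (1.18 ± 0.21, adjusted p = 0.0245), with replicate 1 the highest Wistar value and on the Wistar side. *C1qb* of the complement cascade was the other called marker (0.71 ± 0.17, adjusted p = 0.0445), with replicate 1 on the WAR side. *Lair1*, an inhibitory collagen receptor of immune cells chosen after its values were seen, was higher by 1.06 ± 0.25 (adjusted p = 0.0422) and by 1.88 in the stimulated arrays (adjusted p = 0.0185), with replicate 1 inside its group.

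Of 36 interferon-induced genes 5 were higher and 0 lower in WAR N (13.9%), and replicate 1 lay with Wistar N at all 5. Without it 15 were higher and 4 lower (52.8%). Their mean level was 6.45 to 6.68 in WAR N, 6.31 to 6.35 in the other Wistar N arrays and 6.25 in replicate 1. *Parp9*, a partner of interferon signaling, had 6.31, 6.47, 6.42 and 6.48 in Wistar N and 6.97, 6.93, 7.20 and 7.004 in WAR N (0.61 ± 0.09, adjusted p = 0.0174). *Ifi44* differed by 0.72 ± 0.11 (adjusted p = 0.019), and *Oas1i* of the antiviral oligoadenylate synthetases by 0.50 ± 0.10 (adjusted p = 0.0324). With sound 1 of the 36 was called higher. Of 45 histocompatibility genes only *B2m*, the light chain of class I molecules, was called (0.57 ± 0.11, adjusted p = 0.0274, replicate 1 with WAR N), and of 17 complement genes 2 were higher, *C1qb* and the regulator *Cd55* (0.93 ± 0.22, adjusted p = 0.0445, replicate 1 with WAR N). Without replicate 1 the histocompatibility genes had 8 higher and 3 lower, and the complement genes 4 higher and 2 lower.

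Of 12 astrocyte markers 3 were lower and none higher, with a median of −0.40, and 6 were lower and 1 higher without replicate 1 (58.3%). Replicate 1 lay with Wistar N at all 3, and the mean level of the list was 10.73 to 10.93 in WAR N, 11.13 to 11.29 in the other Wistar N arrays and 11.11 in replicate 1. *Aldh1l1*, a folate enzyme specific to astrocytes, had 9.09, 8.77, 8.91 and 9.55 in Wistar N and 8.19, 8.49, 8.25 and 8.37 in WAR N (−0.76 ± 0.16, adjusted p = 0.0356). *Slc6a11*, the GABA transporter GAT-3 of astrocytes, had 11.80, 12.04, 12.32 and 11.81 against 11.14, 10.91, 11.08 and 11.70 (−0.79 ± 0.18, adjusted p = 0.042). *Plpp3*, a lipid phosphatase, was lower by 0.56 ± 0.13 on the log2 scale (adjusted p = 0.0407), with replicate 1 at place 0.51. All 12 differences were negative in the stimulated arrays, with a median of −0.25.

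Of the oligodendrocyte lineage, *Olig1*, a transcription factor of the lineage, was lower by 1.15 ± 0.21 (adjusted p = 0.0247, replicate 1 just on the WAR side at 0.46), the 1 call among 10 markers. *Gpr17*, a receptor of precursors on the way to myelination, was lower by 0.78 ± 0.17 (adjusted p = 0.0377, replicate 1 with Wistar N), the 1 call among 6 precursor markers. Of markers of meningeal fibroblasts 1 of 10 was called, *Ogn*, a small matrix proteoglycan (1.19 ± 0.15, adjusted p = 0.0133, replicate 1 with Wistar N). Of 6 ependymal markers the ciliary *Cfap126* (1.12 ± 0.15, adjusted p = 0.0174, replicate 1 just on the WAR side at 0.48) and *Rarres2* (0.56 ± 0.14, adjusted p = 0.0498, replicate 1 with Wistar N) were higher. For choroid plexus 0 of 10 and for red blood cells 0 of 6 were called by limma, with 1 of each list at an unadjusted p under 0.05 (25.2% of all genes). *Hbb*, the β chain of hemoglobin, had a difference of −0.67 (adjusted p = 0.0743) in the naïve arrays and −1.17 (adjusted p = 0.0136) in the stimulated arrays. Of 12 cerebellar markers *Cbln1*, a synaptic organizer, was called lower (−0.89 ± 0.22, adjusted p = 0.0478, replicate 1 with Wistar N). Without replicate 1 the calls higher and lower were 2 and 2 for oligodendrocytes, 0 and 2 for their precursors, 4 and 1 for meningeal fibroblasts and 2 and 1 for ependyma. They were 1 and 0 for choroid plexus, 0 and 1 for red blood cells and 2 and 5 for cerebellar neurons. What part these cell types have in the results was not tested.

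Inhibitory transmission had called members in both directions, 2 higher and 3 lower of 30 (16.7%), and replicate 1 lay with Wistar N at all 5. Without it 8 were higher and 6 lower. *Gad1*, the main enzyme of GABA synthesis, had 10.88, 10.92, 11.12 and 10.84 in Wistar N and 10.27, 10.14, 9.70 and 10.32 in WAR N. The groups were apart and replicate 1 was inside its own. The difference was −0.83 ± 0.14 (adjusted p = 0.0242), and −0.01 in the stimulated arrays. *Slc32a1*, which loads GABA and glycine into synaptic vesicles, had 8.75, 9.72, 9.23 and 8.82 against 8.26, 8.00, 7.48 and 8.22 (−1.14 ± 0.24, adjusted p = 0.0345), and 0.13 in the stimulated arrays. The interaction of strain and sound was not called at either gene (adjusted p = 0.133 and 0.112).

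With the astrocytic *Slc6a11*, these are the lower 3. The higher members were *Slc6a5*, the glycine transporter of glycinergic terminals (0.50 ± 0.10, adjusted p = 0.0288), and *Gabra5*, a subunit of extrasynaptic GABA receptors named after its values were seen (0.80 ± 0.17, adjusted p = 0.0348). *Gabra5* had 9.99, 9.74, 10.13 and 9.72 in Wistar N and 11.13, 10.44, 10.43 and 10.78 in WAR N, with replicate 1 inside its group.

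The calls in ion channels and excitatory receptors depended on replicate 1. Of 86 potassium channel genes 0 were higher and 3 lower with 8 arrays (3.5%), and 15 were higher and 9 lower without it. The 3 were *Kcnab2*, an auxiliary subunit (−0.65 ± 0.11, adjusted p = 0.0237, replicate 1 with Wistar N), *Kcnj9*, a G protein-gated channel (−0.48 ± 0.09, adjusted p = 0.0296, place 0.50, just on the WAR side), and *Kcnj11*, the pore of ATP-sensitive channels (−0.80 ± 0.17, adjusted p = 0.0362, replicate 1 with WAR N). Of 35 sodium and calcium channel genes *Cacnb3* was lower (−0.44, adjusted p = 0.0462, replicate 1 inside its group). Of 32 glutamate receptors and transporters *Grin2c* was lower (−0.51 ± 0.11, adjusted p = 0.0352, replicate 1 with WAR N), and also in the stimulated arrays (−0.37, adjusted p = 0.0217). Without replicate 1 the sodium and calcium channels had 4 higher and 3 lower, and the glutamate genes 6 higher and 7 lower (40.6%). Of 37 genes of inherited epilepsies 0 were called by limma and 8 passed an unadjusted p of 0.05, which 25.2% of all genes did, and without replicate 1, 10 were higher and 4 lower (37.8%). The smallest p-values with 8 arrays were those of *Dnm1*, *Slc12a5* and *Grin1*, with differences of −0.51, −0.58 and −0.48. Of 15 genes linked to audiogenic seizures 1 was called, *Mapk8ip2* (−0.53 ± 0.11, adjusted p = 0.0326, replicate 1 inside its group), and 3 were higher and 2 lower without replicate 1.

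Other members of the audiogenic list show how much replicate 1 weighs. *Lgi1*, whose product tunes synaptic AMPA receptors, had 11.34, 9.76, 10.14 and 10.13 in Wistar N and 11.27, 11.21, 10.88 and 11.06 in WAR N. Replicate 1 was the highest of all 8 arrays. The difference of 0.76 had an adjusted p of 0.147, and without replicate 1 it was 1.10 with an adjusted p of 0.000142. *Scn8a*, the sodium channel of the axon initial segment, likewise went from −0.53 (adjusted p = 0.105) to −0.66 (adjusted p = 0.00915).

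Receptors for monoamines, acetylcholine and adenosine had 1 higher and 4 lower of 55 (9.1%) with 8 arrays and the opposite balance, 15 higher and 7 lower, without replicate 1. Neuropeptides and their receptors had 2 higher and 5 lower of 58 (12.1%), and 7 and 11 without it. *Htr3a*, the serotonin-gated channel, had 6.81, 6.23, 6.76 and 6.44 in Wistar N and 5.86, 5.79, 6.15 and 5.78 in WAR N. Replicate 1 was the highest Wistar value. The difference was −0.66 ± 0.15 (adjusted p = 0.0386) and −0.83 in the stimulated arrays (adjusted p = 0.0295). *Adra2a*, an adrenergic autoreceptor, was lower by 0.50 ± 0.12 (adjusted p = 0.0449, replicate 1 inside its group), and *Htr1f* was higher by 0.99 ± 0.24 (adjusted p = 0.0445, replicate 1 with WAR N). *Ntsr2*, a neurotensin receptor (−0.67, adjusted p = 0.0247), and *Adcyap1r1*, the PACAP receptor (−0.64, adjusted p = 0.0302), were lower. *Oprk1*, the kappa opioid receptor, was higher (0.61, adjusted p = 0.0335), and replicate 1 lay with Wistar N at all 3. *Pnoc*, the precursor of nociceptin, named after its values were seen, was lower in WAR N by 0.73 ± 0.17 (adjusted p = 0.0397, replicate 1 with WAR N), while the stimulated difference was 0.66, and the interaction of 1.39 had an adjusted p of 0.0431.

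In G protein signaling 4 of 48 genes were higher and 2 lower (12.5%), and 17 and 7 without replicate 1. Besides *Rgs5*, *Gng11*, a γ subunit, was higher (0.75 ± 0.13, adjusted p = 0.0245) and *Rgs4* lower (−0.54 ± 0.10, adjusted p = 0.0247), both with replicate 1 on the Wistar side. Of 40 immediate early genes 0 were called by limma and 7 passed an unadjusted p of 0.05, a share below the 25.2% of all genes, with the smallest p-values at *Dusp4*, *Ier5* and *Jun* (−0.56, −0.54 and −0.61). Without replicate 1, 3 were higher and 9 lower. Of 21 calcium-binding proteins of auditory neurons 0 were called by limma and 8 passed an unadjusted p of 0.05, against 25.2% of all genes, and without replicate 1, 5 were higher and 3 lower. In the core clock of 17 genes *Per3* was higher (0.89 ± 0.13, adjusted p = 0.0174; 0.31 in the stimulated arrays, adjusted p = 0.0487) and *Bhlhe41* lower (−0.89 ± 0.16, adjusted p = 0.0247), with replicate 1 slightly on the Wistar side at 0.57 and 0.54. Without replicate 1, 8 clock genes were higher and 5 lower. No source gives the hour at which tissue was taken.

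*Hk1* and *Glud1*, enzymes of glucose and glutamate breakdown, were picked out after their values were seen and had replicate 1 on the Wistar side. *Hk1*, the brain hexokinase, had 10.47, 10.71, 10.78 and 10.60 in Wistar N and 9.70, 9.78, 9.53 and 9.87 in WAR N (−0.92 ± 0.11, adjusted p = 0.0132). *Glud1*, which feeds glutamate into the citric acid cycle, had 11.37, 11.79, 11.93 and 11.86 against 10.86, 11.05, 10.78 and 10.76 (−0.87 ± 0.13, adjusted p = 0.0179). The stimulated arrays gave −0.70 at *Glud1* (adjusted p = 0.0033). At *Hk1* they gave −0.08, and the interaction of 0.83 had an adjusted p of 0.0271. *Slc2a3*, the glucose transporter of neurons, was lower by 0.73 ± 0.12 (adjusted p = 0.022, replicate 1 with Wistar N).

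Respiratory chain subunits were called in both directions, 8 higher and 2 lower of 77 (13.0%), with replicate 1 on the Wistar side at 6 of the 10. *Ndufv1*, which carries the NADH site of complex I, was lower (−0.72 ± 0.10, adjusted p = 0.0147), while *Ndufa7* (0.47 ± 0.09, adjusted p = 0.0274) and *Cox7a2l* (0.67 ± 0.11, adjusted p = 0.022) were higher. Without replicate 1 the list had 34 higher and 15 lower. Of 24 genes of mitochondrial dynamics and quality control the protease *Lonp1* was lower (−1.08 ± 0.24, adjusted p = 0.038, replicate 1 with WAR N), and without replicate 1, 5 were higher and 8 lower.

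Lipid genes had calls in both directions. Of 63 lipid and fatty acid enzymes 2 were higher and 5 lower (11.1%), with a median of −0.18, and without replicate 1 there were 6 higher and 25 lower. *Acot2*, a mitochondrial thioesterase, had 7.93, 8.06, 7.86 and 8.19 in Wistar N and 7.27, 7.34, 7.22 and 7.32 in WAR N (−0.72 ± 0.09, adjusted p = 0.0147), with replicate 1 inside its group. *Hadh* of β-oxidation was lower (−0.87 ± 0.15, adjusted p = 0.0244, replicate 1 with WAR N) and *Eci1*, which handles unsaturated fatty acids, was higher (0.74 ± 0.16, adjusted p = 0.0362). In cholesterol synthesis 2 of 28 genes were lower, *Dhcr7* (−0.87 ± 0.14, adjusted p = 0.0183) and *Tm7sf2* (−0.63 ± 0.11, adjusted p = 0.0247), both sterol reductases with replicate 1 on the Wistar side, and 4 were higher and 11 lower without it.

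Among enzymes that handle aldehydes, ketones and epoxides 2 of 45 were higher and 4 lower (13.3%), and 7 and 8 without replicate 1. *Aldh2*, the mitochondrial aldehyde dehydrogenase, had 8.71, 9.07, 8.97 and 9.13 in Wistar N and 7.42, 7.43, 8.11 and 7.77 in WAR N. The difference was −1.29 ± 0.17 (adjusted p = 0.0147), 2.44-fold, and −1.38 without replicate 1, and replicate 1 lay with its group at 0.75. In the stimulated arrays it was −0.62 (adjusted p = 0.124). *Akr1c15*, an aldo-keto reductase, was higher by 0.76 ± 0.11 (adjusted p = 0.0174). Of 69 cytochrome P450 genes 2 were lower (2.9%), *Cyp2d4* (−0.69, adjusted p = 0.0202) and *Cyp26b1*, which degrades retinoic acid (−0.82, adjusted p = 0.0302), and at both replicate 1 lay with Wistar N. Without it 6 were higher and 4 lower. Glutathione and antioxidant enzymes had 4 higher and 1 lower of 64 (7.8%), and 18 and 9 without replicate 1. They included *Mgst1* (0.63, adjusted p = 0.0174), *Gstk1* (0.55, adjusted p = 0.0229) and *Gsto1* (0.97, adjusted p = 0.0456), the last with replicate 1 on the WAR side.

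Of 80 cytosolic ribosomal protein genes 11 were higher and 0 lower with all 8 arrays (13.8%), with replicate 1 on the Wistar side at 5 of the 11. The mean level of the list was 10.41 to 10.52 in WAR N, 10.41 to 10.69 in the other Wistar N arrays and 10.18 in replicate 1. Without replicate 1 the list had 21 higher and 26 lower. *Rps10* had 10.13, 10.13, 10.21 and 10.44 in Wistar N and 11.73, 11.22, 10.79 and 11.42 in WAR N (1.06 ± 0.18, adjusted p = 0.0242), with replicate 1 inside its group. *Rpl36* differed by 1.21 ± 0.18 (adjusted p = 0.0174, place 0.46) and *Rps19* by 0.56 ± 0.09 (adjusted p = 0.0214, replicate 1 inside its group). With sound *Rps10* gave −0.11, *Rpl36* −0.18 and *Rps19* 0.08.

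Zinc finger protein genes had 15 members called higher and 1 lower of 160, with replicate 1 on the Wistar side at 11 of the 16. Without replicate 1 there were 50 higher and 23 lower, and in the stimulated arrays 1 was higher and 0 were lower. *Zfp951* had 4.59, 4.91, 4.58 and 4.87 in Wistar N and 5.77, 5.83, 6.59 and 5.56 in WAR N (1.20 ± 0.21, adjusted p = 0.0239). It was dim, at percentile 14.8 of mean level. Its Wistar N values were near the mean of olfactory and vomeronasal receptors, 4.58 to 4.65 in replicates 2 to 4 and 4.75 in replicate 1. *Zfp180* (0.52 ± 0.08, adjusted p = 0.0216) and *Zfp534l1* (0.74 ± 0.13, adjusted p = 0.0237) were also higher with replicate 1 on the Wistar side. Genes of this family are alike in sequence, and probes may read more than 1 of them.

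Solute carriers were called near the background, 10 higher and 13 lower of 295 (7.8%), and 54 and 43 without replicate 1 (32.9%). They included *Slc66a3* (0.72, adjusted p = 0.0174) and *Slc1a4*, a carrier of neutral amino acids (−0.72, adjusted p = 0.022), both with replicate 1 on the Wistar side. Heat shock proteins and chaperones had 2 higher and 3 lower of 76 (6.6%) with 8 arrays, but 8 higher and 28 lower without replicate 1 (47.4%), with *Dnajc28* higher (0.62, adjusted p = 0.0274) and *Dnajc11* lower (−0.55, adjusted p = 0.0313). Collagens and basement membrane genes had 1 call of 38, *Lama3* (0.48, adjusted p = 0.0384, replicate 1 with Wistar N), and cadherins and protocadherins 1 of 31, *Pcdhb4* (1.00, adjusted p = 0.0493, replicate 1 with WAR N). Without replicate 1 these had 6 higher and 1 lower, and 11 higher and 3 lower. Olfactory and vomeronasal receptors, which the IC should hardly express, had 1 call of 213 (0.5%), *Olr990* (−0.34, adjusted p = 0.0445), and 8 higher and 1 lower without replicate 1.

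Some genes called in both the naïve and the stimulated arrays lay outside the lists and were named after their values were seen. *Sucnr1*, the succinate receptor, had 7.18, 6.67, 6.43 and 6.57 in Wistar N and 5.58, 5.53, 6.03 and 5.84 in WAR N (−0.97 ± 0.18, adjusted p = 0.0247), and −1.78 in the stimulated arrays (adjusted p = 0.00141). Replicate 1 was the Wistar array farthest from WAR N. *Cmc1*, which takes part in the assembly of cytochrome oxidase, had 6.78, 7.42, 6.36 and 7.31 against 5.94, 5.76, 5.84 and 5.6004 (−1.18 ± 0.22, adjusted p = 0.0259), and −1.32 in the stimulated arrays (adjusted p = 0.00967), with replicate 1 inside its group.

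The interaction of strain and sound passed the adjusted threshold at 15 of 14506 genes (0.103%), 9 with a more positive (0.062%) and 6 with a more negative (0.0414%) difference with sound. Sound exposure, seizure and the apparently separate normalization of the sets cannot be told apart in these values. The examples were named after their values were seen. Besides *Psmb6*, *Adprh*, *Hk1*, *Pnoc* and *Terc*, *Ap2m1*, a subunit of the clathrin adaptor of synaptic vesicles, had 11.47, 11.93, 12.15 and 12.08 in Wistar N and 10.74 to 10.98 in WAR N, a difference of −1.08 ± 0.15 (adjusted p = 0.0174), against 0.15 in the stimulated arrays. *Ppp2r5d*, a regulatory subunit of PP2A, differed by −0.99 ± 0.13 (adjusted p = 0.0147) in the naïve and 0.16 in the stimulated arrays, and *Puf60*, a splicing factor, by −1.16 ± 0.14 (adjusted p = 0.0133) and 0.02. *Fis1*, a receptor of mitochondrial fission, had a naïve difference of 0.52 (adjusted p = 0.1) and a stimulated difference of −1.32 (adjusted p = 0.0185). Replicate 1 lay with WAR N at *Fis1* and with Wistar N at *Ap2m1*, *Ppp2r5d* and *Puf60*.

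Calls were also set against the order of genes on the chromosomes. Of 877 called genes with a next measured gene, 30 (3.4%) had a neighbour called in the same direction and 34 (3.9%) a neighbour called in the opposite direction, beside 3.05% given by the calls over all genes. A single run of 3 adjacent genes was called in 1 direction, *Idh3a*, *Acsbg1* and *Dnaja4*, with differences of −0.65, −0.62 and −0.80. *Idh3a* is a subunit of isocitrate dehydrogenase, *Acsbg1* activates very long-chain fatty acids and *Dnaja4* is a co-chaperone. Replicate 1 lay with Wistar N at the first pair of the run and with WAR N at *Dnaja4*.

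Probe sets without a gene name differed too. Of 13581 such probe sets 448 (3.3%) passed the threshold over all 29214 probe sets, 348 higher (2.56%) and 100 lower (0.736%) in WAR N, while of the 15310 with 1 symbol 685 (4.47%) passed, 369 higher (2.41%) and 316 lower (2.06%). In all 1138 probe sets (3.9%) passed, 720 higher (2.46%) and 418 lower (1.43%). Called genes had 94 further probe sets, of which 92 had the same direction as the one used, 65 were also called, and 0 were called in the opposite direction.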

How the data were processed

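The deposited values are on a log2 scale. RMA, whose version the sources do not state, had corrected the background, normalized by quantiles and summarized the probes of each set, so shifts shared by most genes are not seen. Pairs of stimulated arrays shared 2675 to 3286 identical values, pairs of naïve arrays 2 to 13 and mixed pairs 0, so the sets were treated as normalized apart. At *Per3*, for example, WAR S replicates 1, 3 and 5 all had 9.6805. The median SE was 0.074 in the stimulated fit, 0.126 with the 8 naïve arrays and 0.112 without Wistar N replicate 1. Whether shared values make the stimulated adjusted p-values too small was not tested. Arrays were grouped by their labels, and 0 columns were left unused. Of 29214 probe sets, 15310 carried 1 symbol in the platform annotation, 323 several and 13581 none. The probe set with the highest mean over the 8 arrays stood for each of 14506 genes, of which 14480 matched a gene table of the assembly GRCr8, used for the order of genes. The number of arrays limits the precision.

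For each gene limma (version 3.58.1, run under R version 4.3.3) fitted a mean per group with moderated variances, 2-sided, and p-values were adjusted by Benjamini-Hochberg over all genes with a threshold of 0.05. For a single gene, 4 against 4 arrays allow no exact permutation p under 0.0286, which every gene with groups that do not overlap reaches. SAM, named in the methods, was not repeated. The stimulated arrays were fitted alone, and the interaction of strain and sound in a fit of all 15. On simulated data for WAR N against Wistar N over 14506 genes, with the spread of the arrays other than Wistar N replicate 1, 45 of 100 genes changed by 0.5 and 96 of 100 changed by 1 were called, with 8 false calls. The fit of the 8 measured arrays also held the spread of replicate 1, so these shares do not carry over to it.

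Named genes were the 12 largest called differences in each direction with groups that do not overlap, the 5 genes of the RT-qPCR, up to 3 members with the smallest p of each list, runs of at least 3 called neighbours, and genes marked as chosen after their values were seen. Members and lists were chosen with earlier results of these data known. Replicate numbers did not pair the arrays: deviations of same-numbered arrays from their group means correlated at −0.31 to 0.06. The alternatives were each array left out, the replicate number or the label set (a running number in the labels, which no source calls a batch) as a block, each label set alone, all 15 arrays in the model, the dimmest 0.25 of genes left out, all named probe sets, the probe set by its mean over 15 arrays, a robust eBayes with an intensity trend, weights per array, normalization by cyclic loess, median centring and the ratio of unlogged means. Counts of the lists without Wistar N replicate 1 and in the stimulated arrays were added after the data were seen.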

Additional observations from a re-analysis of the deposited data

Results flagged for a closer look

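Dixon's test asks whether the gap between 1 array and the nearest other of its group of 4 is too large a part of the group's range, which chance alone gives in about 1 in 20 groups. Over all 14506 genes it was met in 5.2% in WAR N, with 1.0% to 1.6% per array. In Wistar N it was met in 8.7%, of which replicate 1 alone gave 6.2% and the other arrays 0.5% to 1.0%. Among the genes named above it was met 22 times. Wistar N replicate 1 was the far array at *Gstk1* (0.96 of the range), *Rpl36* (0.94), *H2ac21*, *Enc1* and *Cfap126* (0.93 each), *Htr1f* (0.91), *Lonp1* (0.90), *Fis1* (0.89), *Mt2A* (0.88), *Dpm3* (0.87), *Acer2* and *Gsto1* (0.86 each), *Rgs5* (0.84), and *Pop5* and *Kcnj9* (0.83 each). At *Pop5* it was far on the side away from WAR N, and at the other 14 on the side towards WAR N.

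Other arrays were far at single genes. Wistar N replicate 2 was far at *Hbb* (0.94), replicate 3 at *Rps19* (0.95) and replicate 4 at *Dnm1* (0.85). WAR N replicate 2 was far at *Cox7a2l* (0.97) and *Lsm6* (0.85), and WAR N replicate 4 at *Ppp2r5d* (0.94) and *Mt2A* (0.86).

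The strain difference with sound differed from that without sound at 15 genes (interaction in limma, adjusted p under 0.05 over all genes). The difference with sound minus that without was positive at *Pnoc* (1.39), *Ap2m1* (1.23), *Mrps18b* (1.19), *Puf60* (1.17), *Ppp2r5d* (1.15), *Adprh* (0.97), *Hk1* (0.83), *Cisd3* (0.78) and *Fbxo25* (0.53). It was negative at *Terc* (−2.25), *Fis1* (−1.84), *Psmb6* (−1.66), *Gulp1* (−0.996), *Bloc1s5* (−0.94) and *Metrn* (−0.78). At *Gulp1* the naïve difference of 0.44 (adjusted p = 0.0302) and the stimulated difference of −0.55 (adjusted p = 0.0493) were both called. Sound exposure, seizure and the separate normalization of the 2 sets cannot be told apart in these values.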

How the results depend on the processing

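The count of called genes, 878, ranged from 8 to 4787 when 1 array was left out, the latter without Wistar N replicate 1. It was 46 with the replicate block and 3040 with all 15 arrays in the model. With array weights it was 4743. Within label set 1 (Wistar N replicates 1 and 4, WAR N replicates 1 and 2) limma called 0 genes, with 836 at an unadjusted p under 0.05. Within label set 2, which lacks replicate 1, it called 3516, of which 782 were among the 878. The count by fold change, 254, ranged from 176 to 634 when 1 array was left out, and was 56 in label set 1, 751 in label set 2 and 555 with array weights. The other alternatives gave 849 to 1001 calls and 251 to 292 by fold change. Median centring turned the split of calls from 469 higher and 409 lower to 410 and 481, and the ratio of unlogged means gave 107 higher and 161 lower by fold change. The causes of these shifts were not tested.

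Of 117 named genes called with 8 arrays, all kept their direction under each alternative that tested them. All 117 stayed called without Wistar N replicate 1, 8 to 50 when another array was left out, 17 with the replicate block, 107 with the label set as a block, 0 in label set 1 and 111 in label set 2. At 2 genes that were not called the sign turned, *Rgs2* (−0.01 to 0.13 when 1 array was left out, −0.01 without Wistar N replicate 1, −0.03 in label set 2, −0.02 with array weights) and *Ttr* (−0.35 to 0.12 when 1 array was left out, 0.12 without Wistar N replicate 1, 0.02 in label set 2, 0.03 with array weights).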
